A study of Homo sapiens with 8 samples.

Results

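MT-ND1 is the mitochondrial gene for subunit 1 of NADH dehydrogenase. It was taken by its position on the plus strand of human mtDNA, chrM:3308-4263 in the numbering of the deposited files (hg19, 1-based), and reads of both strands were counted there. It is 1 of 13 protein-coding genes and 1 of 37 genes of the mtDNA, and 344 of its 956 bases are cytosines of the sense strand (36.0%). The annotation gives it a single exon that is coding throughout. It begins 2 nt after MT-TL1, a leucine tRNA gene, and MT-TI, the isoleucine tRNA gene, follows with a gap of 0 nt.

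All 8 samples came from HEK293, a human cell line first made from embryonic kidney. In miCLIP, a tagged RNA cytosine methyltransferase is pulled down with the RNA it holds, and reverse transcription stops close to the bound cytosine. The start of each read (the truncation) thus lies around the site, but not always at it. There were 3 miCLIP libraries with myc-tagged NSun3 and 3 with myc-tagged NSun6, all from transfected cells harvested 24 hours later and precipitated with the same anti-myc antibody. The methods describe the NSun3 construct as a mutant that lacks the cysteine needed for release. The form of NSun6 used here is not given in the sources used here, and there was no library from untransfected cells. In 2 further samples of the line, poly(A) RNA was treated with bisulfite and sequenced, in which cytosines without 5-methylcytosine (m5C) are read as thymine. Both bisulfite samples stand in 1 table without sample columns, so its values have no replicate error. The labels number the miCLIP replicates but do not say whether they came from separate cultures, so that p-values measure the spread between these libraries, which may be technical. All comparisons set an over-expressed enzyme against another over-expressed enzyme.

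MT-ND1 protein is a core subunit of the membrane arm of respiratory complex I, the enzyme that passes electrons from NADH to ubiquinone and pumps protons. The mRNA is cut out of a long transcript of the mtDNA in which tRNAs stand between the other genes and mark where processing occurs. NSun3 is known as the enzyme that methylates the wobble cytosine in the anticodon of mitochondrial tRNA-Met, encoded by MT-TM. NSun6 is known to methylate cytoplasmic tRNA-Cys and tRNA-Thr, next to the CCA end, and mRNA cytosines that open the letters CTCCA.

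The sequences at the leading sites of MT-ND1 are shown first, since they held most of its truncations. They are the sense strand of the mtDNA in the GRCh37 assembly, 5′ to 3′, with positions in the numbering of the deposited files, which is 1 nt above that of the assembly here. In the first line, chrM:3860-3922, capitals mark CTCCA, whose first cytosine (3868) led in NSun6, and the single cytosine (3905) that led in NSun3.
both leading sites: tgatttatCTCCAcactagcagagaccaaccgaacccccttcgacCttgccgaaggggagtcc
In the next lines the capital is the cytosine of an NSun3 site, with 12 nt on either side, for the leading site and the next 3 by level.
site 3905: acccccttcgacCttgccgaagggg
site 3875: tttatctccacaCtagcagagacca
site 3418: acgcaaaggcccCaacgttgtaggc
site 3577: aacccccctcccCatacccaacccc

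The libraries were of unequal depth. The NSun3 libraries held 47352 to 138921 reads and the NSun6 libraries 305392 to 467586, so 1 read was worth 7.20 to 21.1 RPM (counts brought to a total of 1000000 per library) in NSun3 and 2.14 to 3.27 RPM in NSun6. A count of 0 therefore allows up to 21.6 to 63.4 RPM (3 reads) in an NSun3 library and 6.42 to 9.82 RPM in an NSun6 library. The mtDNA took 24.4% to 37.6% of NSun3 reads and 8.05% to 9.56% of NSun6 reads. Reads on exons of the NSUN3 gene, which the transfected construct also carries, numbered 32, 19 and 0 in NSun3 replicates 1, 2 and 3 and 0, 0 and 8 in NSun6, and NSUN6 exon reads were 0 in each NSun3 library and 323, 428 and 323 in NSun6. The library labelled NSun3 replicate 3 thus had no read of its own enzyme, and the main NSun3 levels are also given without it. Of positions on exons annotated on 1 strand, 63.0% to 82.0% lay on the exon's strand in NSun3 and 97.0% to 97.4% in NSun6.

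MT-ND1 had far more reads in the NSun3 than in the NSun6 libraries, as RPM, as a share of mtDNA reads and per kb. The NSun3 libraries had 6307, 1973 and 1599 reads in the gene, or 45400, 37210 and 33768 RPM. The NSun6 libraries had 254, 527 and 273 reads, or 784, 1127 and 894 RPM. The lowest NSun3 library stood far above the highest NSun6 library, and the means were 38793 ± 5975 RPM (SD, n = 3) and 935.0 ± 175 RPM, a ratio of 41.5. The exact two-sided permutation test gave p = 0.1, the smallest that 3 libraries against 3 allow. Without NSun3 replicate 3 the NSun3 mean was 41305 RPM.

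The mtDNA share was itself larger in the NSun3 libraries. Within the mtDNA, MT-ND1 took 12.07%, 10.82% and 13.86% of reads in NSun3 and 0.821%, 1.40% and 0.996% in NSun6, with no overlap. The means were 12.25% ± 1.53 and 1.07% ± 0.297 (SD, n = 3), a ratio of 11.4 (exact permutation p = 0.1, 0.161 after Benjamini-Hochberg adjustment over the 37 mtDNA genes). Without NSun3 replicate 3 the NSun3 mean was 11.45%. Such a gap in this direction was seen for 14 of the 37 mtDNA genes (37.8%), and MT-ND1 is one of them. The reads lay almost wholly on the sense strand, at 99.7%, 100% and 100% in NSun3 and 100%, 94.9% and 95.6% in NSun6 (exact permutation p = 0.4). Antisense reads numbered 19, 0 and 0 in NSun3 and 0, 27 and 12 in NSun6, and no antisense cytosine was a site of high confidence for either enzyme.

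**Figure D1:**
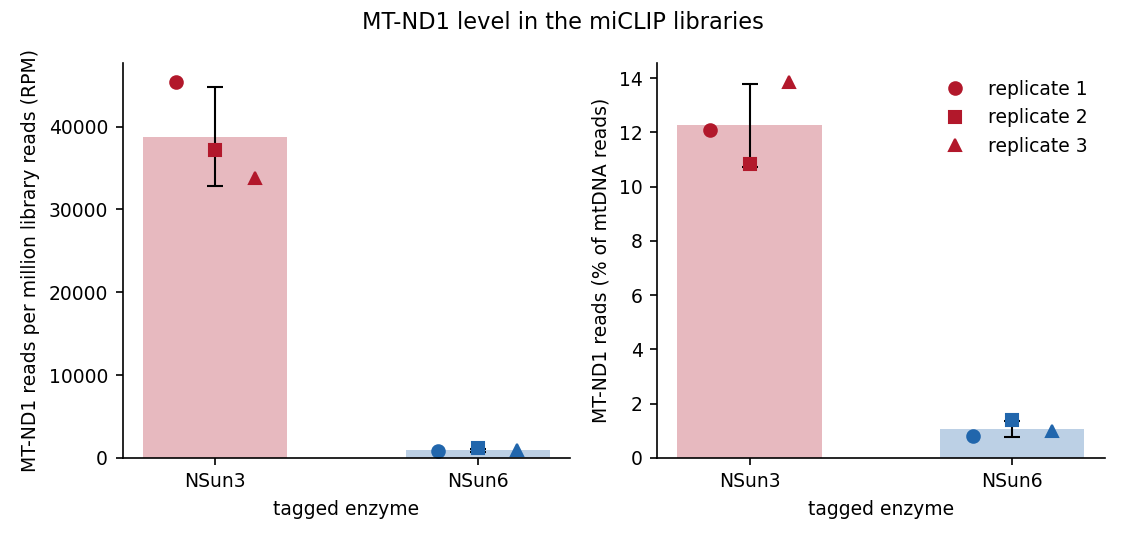
MT-ND1 reads in the 6 miCLIP libraries, as RPM (left) and as a percent of mtDNA reads (right); points are libraries, bars the means and whiskers the SD of 3 libraries. The NSun3 libraries sit between 33768 and 45400 RPM and the NSun6 libraries between 784 and 1127 RPM.

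The same comparison was made with the quasi-likelihood test of edgeR across genes by strand, with reads outside genes kept in bins of 1 kb. MT-ND1 had a log2 fold change, NSun3 over NSun6, of 7.01 ± 0.50 (SE), with an adjusted p of 7.35e-05. In this test 88.2% of 2026 features were called and 11.9% were called higher in NSun3, and the median log2 fold change over all features was -7.06, so that a call says little by itself and the size of the value depends on scaling. The log2 ratio of the mean RPM was 5.37. Fitted on the mtDNA features alone, the log2 fold change of MT-ND1 was 2.89 ± 0.21 (edgeR adjusted p = 3.9e-07).

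The 13 mtDNA mRNAs were set side by side per length, as sense-strand RPM per kb of gene. MT-ND1 had the highest NSun3 level, 40530 ± 6171 RPM per kb (SD, n = 3), and its lowest library (35323) stood above every library of the other 12. The next were MT-ND3, another complex I subunit, at 23364 ± 4570, and MT-ATP8, a subunit of ATP synthase, at 19692 ± 11166 RPM per kb. These neighbours overlapped each other but not MT-ND1. Without NSun3 replicate 3 the means were 43134, 23479 and 26019 RPM per kb for MT-ND1, MT-ND3 and MT-ATP8, with MT-ND1 still first. The first rank of MT-ND1 rests on the cytosine at 3905, described below. Without the reads of that cytosine, MT-ND1 took 10318 RPM over its 956 nt, both strands counted. Per length this is below the mean levels of MT-ND3, MT-ATP8, MT-CO2 (17245.5 RPM per kb) and MT-CYB (12647 RPM per kb), from which no reads were removed. How well reads of the other mRNAs can be placed uniquely was not examined. In NSun6, MT-ND1 was sixth of 13 in order, at 944 ± 155 RPM per kb, and did not differ beyond the spread from MT-ND4, the fifth, at 946.5 ± 45.7 RPM per kb. All NSun6 libraries of 7 mRNAs lay below those of MT-ND1 and all of 4 lay above, with MT-ND3 highest at 43034 ± 4664 RPM per kb.

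**Figure D2:**
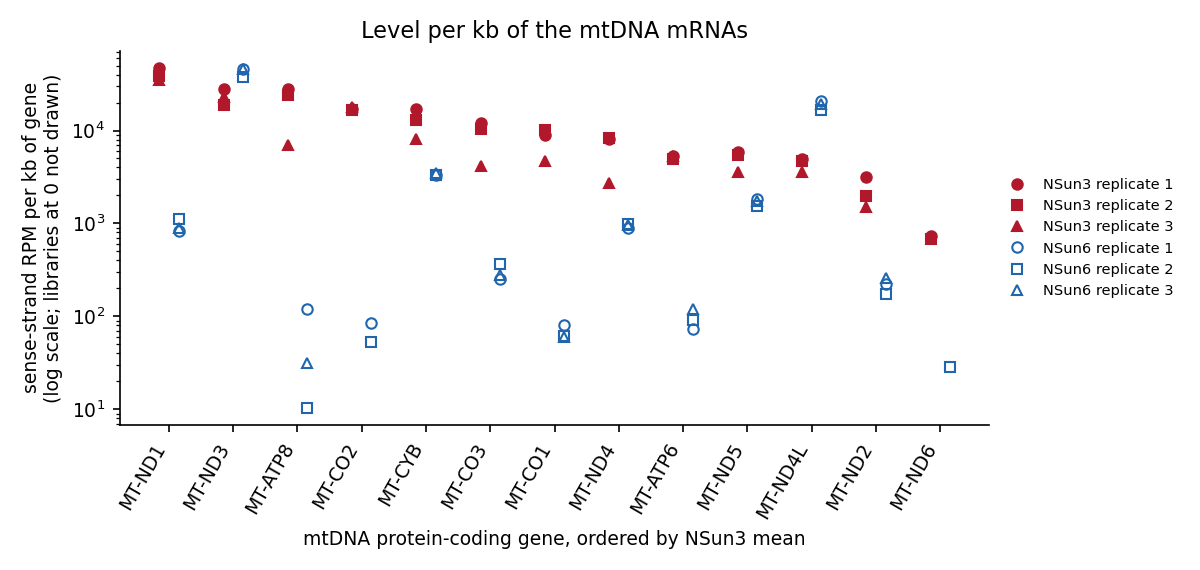
Sense-strand RPM per kb of gene (log axis) for the 13 mtDNA mRNAs, 1 point per library, NSun3 filled and NSun6 open, ordered by NSun3 mean. MT-ND1 leads in NSun3 (35323 to 47346 RPM per kb), with most of its reads at the single cytosine 3905, whereas MT-ND3 leads in NSun6.

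Of the 12 other mRNA genes 11 passed the filter of edgeR, 9 were called higher in NSun3 and 2 (MT-ND3 and MT-ND4L) were not called, with a median log2 fold change of 4.96. Over all 2026 features of this fit 88.2% were called and 11.9% were called higher, with a median of -7.06. MT-ND6, the one gene of the list encoded on the minus strand, did not pass the filter, since only 1.93% of the NSun3 reads over it lay on its own strand. When the mtDNA features alone were fitted, 5 of the 11 were called higher and 4 lower, where 60.5% of 38 features were called, 23.7% higher and 36.8% lower, with a median log2 fold change of -0.28. Among the 6 tested genes for complex I subunits, MT-ND1 was then the one called higher. MT-ND3 (-3.40), MT-ND4L (-4.62) and MT-ND5 (-0.98) were called lower on the log2 scale, and MT-ND2 (0.80, edgeR adjusted p = 0.089) and MT-ND4 (0.17, adjusted p = 0.674) were not called. With library totals, RLE size factors or DESeq2, MT-ND3 and MT-ND4L were also called lower, as were 83.5%, 84.2% and 83.7% of all features. The 5 called higher by the fit within mtDNA besides MT-ND1 were MT-CO1, MT-CO2 and MT-CO3 of cytochrome oxidase and MT-ATP6 and MT-ATP8 of ATP synthase, and 4 of these 11 genes had a larger log2 fold change than MT-ND1 under each scaling.

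The genes whose log2(RPM + 1), both strands counted, ran most like MT-ND1 over the 6 libraries were MT-ND6 (Pearson r = 0.9999), the glycine tRNA gene MT-TG (r = 0.9964) and MT-ATP6 (r = 0.9959). Since 1.93% of the NSun3 reads over MT-ND6 lay on its own strand, its value describes reads opposite the gene and not its mRNA. With 2 groups of libraries set far apart these correlations describe the gap between the enzymes, and the libraries share their depth and mtDNA share. The neighbouring tRNA genes did not follow MT-ND1. MT-TL1, which ends 2 nt before it, took 4.82%, 2.53% and 5.56% of mtDNA reads in NSun3 and 30.7%, 28.3% and 30.3% in NSun6, the reverse order. MT-TI, directly after it, took 21, 9 and 0 reads in NSun3 and 30, 64 and 62 in NSun6. These were 0.0402%, 0.0494% and 0% of mtDNA reads in NSun3 and 0.0969%, 0.170% and 0.226% in NSun6. As RPM they overlapped, at 151, 170 and 0 in NSun3 and 92.6, 137 and 203 in NSun6. Whether reads can be placed uniquely was looked at within MT-ND1 only, not in its neighbours.

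Most truncations fell in a short stretch of the gene. When the gene was cut into windows of 50 nt from its first base, the window of bases 551 to 600 held 85.6%, 86.1% and 91.2% of the sense reads in NSun3 replicates 1, 2 and 3, and 86.2%, 85.4% and 80.5% in NSun6. Both enzymes thus gave most of their reads in the same 1 of 20 windows. The leading cytosines inside that window were 37 nt apart.

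**Figure D3:**
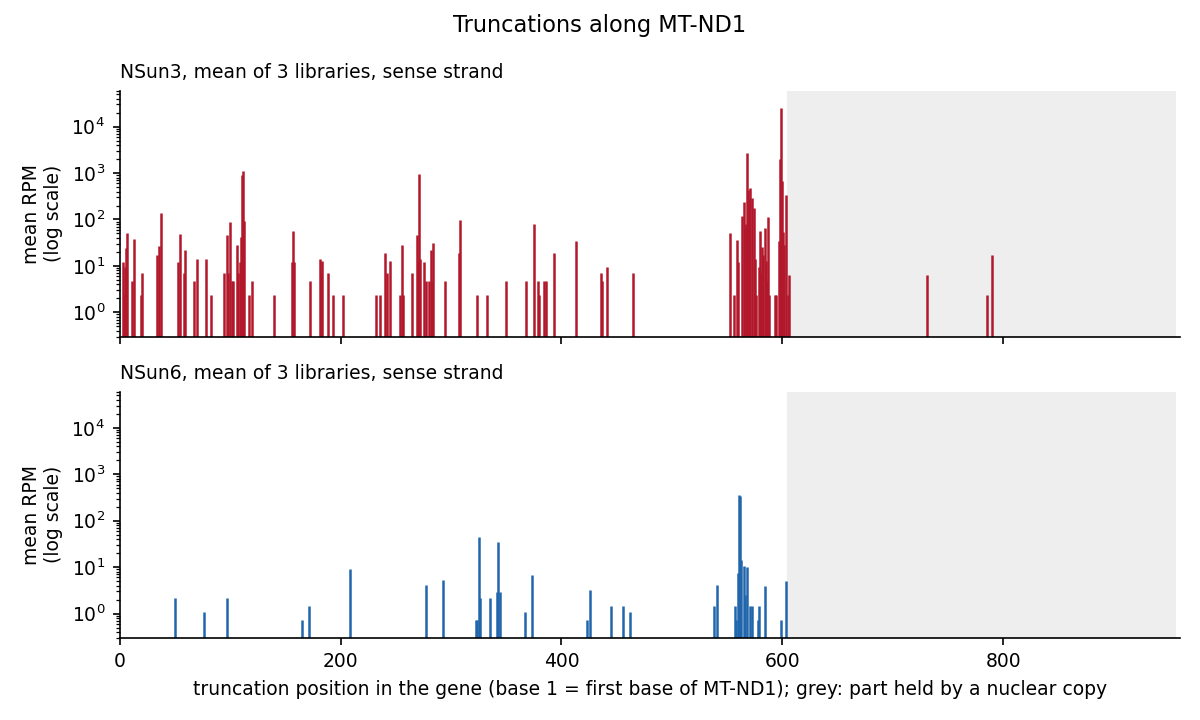
Mean RPM (log axis) of truncations at each sense-strand position of MT-ND1, by base of the gene, for NSun3 (top) and NSun6 (bottom), with lines only where reads were found. The highest NSun3 line is at base 599 and the highest NSun6 lines are at bases 561 and 562; the grey area, from base 605 on, is the part also held by a nuclear copy.

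Reads were assigned to a cytosine of their strand lying at most 2 nt from the truncation. In NSun3 the cytosine at 3905, base 598 of the gene and base 1 of codon 200 (CTT), took 4157, 1579 and 1218 reads, or 29923, 29779 and 25722 RPM. In NSun6 it took 0, 1 and 0 reads. The NSun3 mean was 28475 ± 2385 RPM (SD, n = 3), close in the 3 libraries despite their unequal depth, and 29851 RPM without replicate 3. The cytosine held 66.1%, 80.0% and 76.2% of the sense reads of the gene (a mean of 73.1% without replicate 3). It stood at rank 4 by NSun3 mean among the 7985 cytosines of the series with an NSun3 read. Since it was picked as the highest of the gene, these shares are a description. The truncations themselves were sharp, with 3583, 1486 and 1112 reads at the single position 3906, just 3′ of the cytosine. The base just before the truncation was a C for 84.4% of the NSun3 sense reads of the gene, and for 58.1% (2136 of 3679) when position 3906 was left out.

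Without this cytosine MT-ND1 still had more NSun3 than NSun6 reads. It then took 10318 ± 4478 RPM in NSun3 and 934.3 ± 174 RPM in NSun6 (SD, n = 3), and 3.51% against 1.07% of mtDNA reads, with no overlap of libraries (exact permutation p = 0.1 for both). The share at the cytosine thus made up the larger part of the level in NSun3, and 1 read of 1054 in NSun6.

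High-confidence sites were cytosines with over 50 RPM in at least 2 of 3 libraries. MT-ND1 had 14 such sites in NSun3 and 1 in NSun6, with 0 shared. The threshold took fewer reads in the shallower NSun3 libraries, so the counts of the enzymes are not on like terms. The cytosine at 3909 passed in NSun3 with 27, 3 and 0 reads. That at 3631 did not pass in NSun6 with 7, 15 and 25 reads. How many sites the enzymes shared over the whole series was not counted. In NSun3 they were 18.4% of the 76 sense cytosines with an NSun3 read, against 21.4% for the whole plus strand of mtDNA and 8.85% for the series, so the number of sites is near that of mtDNA at large. In NSun6 the site was 3.23% of 31 cytosines, against 6.97% on the plus strand of mtDNA and 2.18% for the series. At the threshold, the last site inside (3909) had 56.6 RPM in its second library and the first outside (3904) had 37.7 RPM. Of the 14, 8 lay within bases 551 to 603 and 6 before base 350. Codon bases 1, 2 and 3 held 4, 3 and 7 of them, and 94, 102 and 148 of all sense cytosines of the gene.

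The count of NSun3 sites rested on replicates 1 and 2. Of the 14 sites, 7 had no read in replicate 3, where 1 read was worth 21.1 RPM, and 6 passed in all 3 libraries. There were 6 sites without replicate 1, 7 without replicate 2 and 13 without replicate 3, the threshold then being passed in both remaining libraries.

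After 3905 came the cytosine at 3875, in codon 190, with 872, 75 and 126 NSun3 reads, or 6277, 1414 and 2661 RPM. Its mean of 3451 ± 2526 RPM (SD, n = 3) was far below that of 3905, which was 8.25 times higher. NSun6 had 0, 14 and 0 reads there. The cytosine at 3418, in codon 37, had 349, 106 and 71 NSun3 reads (2512, 1999 and 1499 RPM) and no NSun6 read, at least 236-fold higher when NSun6 is set to the mean RPM of 3 reads per library. That at 3577, in codon 90, had 163, 41 and 44 reads (1173, 773 and 929 RPM) and also no NSun6 read, at least 113-fold higher. Both lie far upstream of the main stretch and were read in all NSun3 libraries.

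Beside 3875, the cytosine at 3879 had 123, 15 and 80 NSun3 reads and 0, 4 and 0 NSun6 reads. The cytosine at 3871 had 50, 0 and 34 NSun3 reads and 8, 3 and 0 NSun6 reads. The 34 reads of NSun3 replicate 3 were at 3872, equally near to 3873, and went to 3871 as the 5′ cytosine. Beside the leading site, 3910 had 32, 18 and 22 NSun3 reads and 5, 0 and 0 NSun6 reads. The cytosine at 3343, in codon 12, had 42, 10 and 0 NSun3 reads and none in NSun6. The levels of these 4 were 163.6 to 953 RPM on average, and those of the remaining 6 sites 81.5 to 119 RPM, so that the sites below the leading one spread over more than an order of magnitude. In all, 8 of the 14 sites had no NSun6 read. The same share over all NSun3 sites of the series was not counted, so this is a description of the gene.

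In NSun6 the leading cytosine was at 3868, base 561 of the gene, with 205, 391 and 202 reads, or 633, 836 and 661 RPM. Of these reads, 101, 184 and 94 were at 3869, equally near to the cytosine at 3870, and went to 3868 as the 5′ cytosine. The cytosine at 3868 had 20, 0 and 0 reads in NSun3. This cytosine opens CTCCA and took 80.7%, 79.1% and 78.6% of the NSun6 sense reads of the gene that were given to a cytosine. The letters CTCCA stand 4 times on the sense strand of MT-ND1 and 0 times on the antisense strand, and 1.16% of the sense cytosines open them. The other 3, at 3793, 4222 and 4240, had 0 reads in each of the 6 libraries, but the last 2 lie in the part held by a nuclear copy and, at 3793, a read had to be 81 nt long to have a single place by exact matches. Whether NSun6 marks these 3 could therefore not be judged. Other NSun6 cytosines were low, the next being 3631 with 7, 15 and 25 reads and 3649 with 5, 25 and 14 reads. Most of these reads were at 3632 and 3650, each as near to a cytosine on its 3′ side, and went to the 5′ one.

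**Figure D4:**
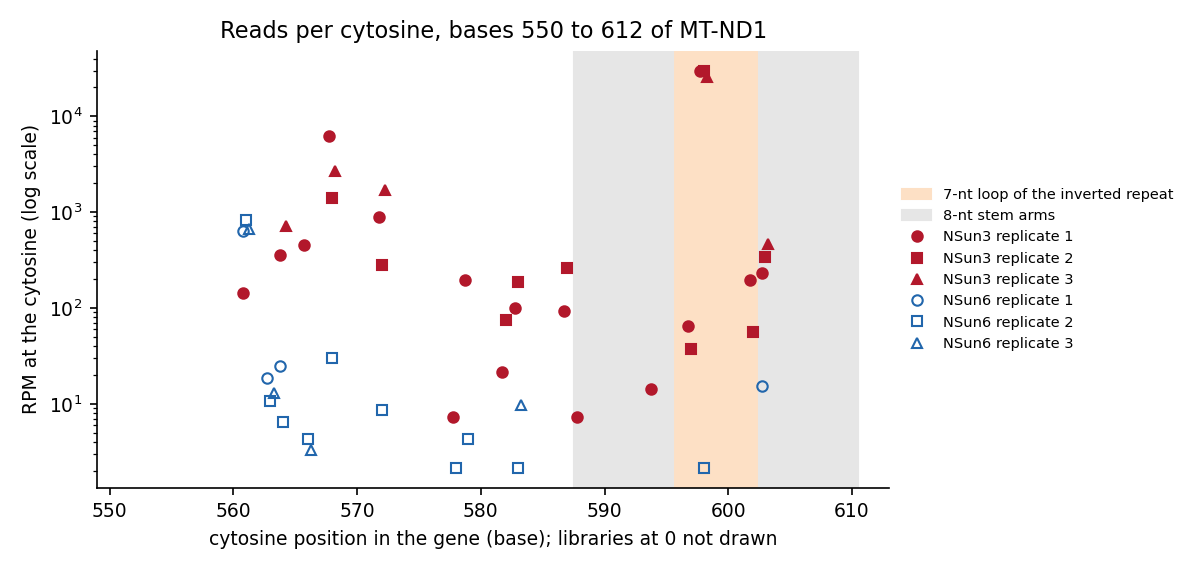
RPM per cytosine (log axis) for bases 550 to 612 of MT-ND1, 1 point per library with reads, NSun3 filled and NSun6 open; shading marks the 7-nt loop and the 8-nt arms of an inverted repeat. NSun6 peaks at base 561 (633 to 836 RPM) and NSun3 at base 598 inside the loop (25722 to 29923 RPM).

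In the edgeR test over cytosines, 7 MT-ND1 cytosines passed the filter on low counts and 7 were called, 6 higher and 1 lower in NSun3, where 88.1% of all 1737 cytosines were called, 17.4% higher and 70.6% lower. The 6 had 0 to 14 NSun6 reads each and passed the filter through NSun3, and 3868 passed it through NSun6, so the filter set the direction of each call. The calls are therefore a description and add nothing to the read counts given above. The fitted log2 fold change of 3868 was -3.33 ± 0.99 (SE), and -10.60 without NSun3 replicate 1, which held all 20 of its NSun3 reads. It was not called without NSun3 replicate 2 (edgeR adjusted p = 0.106), NSun6 replicate 1 (0.0641) or NSun6 replicate 2 (0.0581), with the sign kept. The number of MT-ND1 cytosines called was 17 of 17 passing the filter without NSun3 replicate 3, 6 of 14 without NSun6 replicate 1, 11 of 14 without NSun6 replicate 2 and 13 of 14 without NSun6 replicate 3. The shares over all cytosines were then 84.6%, 75.8%, 83.4% and 82.5%. With no filter beyond 1 read, 24 of 91 MT-ND1 cytosines were called, 21 higher and 3 lower, where 4.51% of all 92350 were called, 0.813% higher and 3.7% lower.

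The stretch around 3905 reads as an inverted repeat. The lines below give it with the loop in capitals, at chrM:3895-3917, and beside it the anticodon arm of MT-TM at chrM:4426-4442, shown for comparison since both have a loop of 7 nt.
MT-ND1 hairpin: ccccttcgACCTTGCcgaagggg
MT-TM anticodon hairpin: tcgggCCCATACcccga
In MT-ND1 8 base pairs could form around the loop and 3905 is loop base 3, the place that the wobble base holds in an anticodon loop. In MT-TM loop base 3 is the cytosine at 4433, the wobble base, which had 0 reads in all 6 libraries. Assignment within 2 nt thus gave no read to the known target base of NSun3. Unique placement of reads in MT-TM was not examined, so this 0 cannot be judged. The paper reports an overlap of the methylated base with the miCLIP sites of this tRNA. The MT-TM gene as a whole took 10012, 4723 and 2089 NSun3 reads, or 19.2%, 25.9% and 18.1% of mtDNA reads. Of these, 7624, 3677 and 1669 lay on the 3′ arm of the same hairpin (4438 to 4442), just 3′ of the loop, and 1444, 648 and 125 on its 5′ arm. Within the hairpins, uniquely placed truncations thus lay on the arms in MT-TM and mostly in the loop in MT-ND1. At the last 3 bases of the 3′ arm in MT-ND1 (3915 to 3917) a read had to be 133 to 135 nt long to have a single place. With placement in MT-TM not examined, the contrast is a description. RNAfold placed 3905 at base 3 of a 7-nt loop on 8 pairs when windows of 41, 61 and 101 nt were folded (-17.6, -23.7 and -26.6 kcal/mol), whereas 3868 was unpaired and in no hairpin loop in each window. These are predictions from sequence, looked for after the level of the site was known.

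To set this repeat in context, perfect inverted repeats with at least 5 pairs around 7 nt were searched on the mtDNA. There were 23 per strand, and the one at 3905 had the longest stem. Taking both strands, 12 had a cytosine at loop base 3 and 4 of these had NSun3 reads at that cytosine, which numbered 6954 in MT-ND1 and 7, 3 and 2 elsewhere. Over the whole repeat, the 3 NSun3 libraries together had 15187 reads in the MT-TM repeat, 7071 in that at 3905, 421 in one within MT-RNR1, a ribosomal RNA gene, 282 in one with no gene on its strand and 2 in one within MT-TL1. The other 7 had 0 reads. One of these, also in MT-ND1 and with loop base 3 at 4168, lies in the part with a nuclear copy. For repeats outside MT-ND1, unique placement of reads was not examined, so their 0 counts cannot be judged. The longest run of letters that a window of 51 nt around 3905 shared with MT-TM was 6 nt, CCCTTC.

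The 3′ part of the gene and a stretch in its middle could not be judged well from uniquely placed reads. A nuclear copy on chromosome 1, chr1:564461-564812 (hg19), matched the last 352 bases of MT-ND1, from base 605 on, with 99.15% identity. Judged by exact matches, a read had to be 59.5 nt long in the median to have a single place in that part, and 18 nt in the part before it, which was the shortest length kept. Before the copy, 58 of 604 bases needed over 30 nt, and 52 of these were bases 485 to 536 (up to 82 nt), a stretch with 0 reads from either enzyme. The part with the copy held 4, 4 and 0 sense reads in NSun3 and 0, 0 and 0 in NSun6, and the copy itself held 0 in all 6 libraries. The leading truncation position lies 6 nt before this part and 18 nt sufficed there. Of 48 nuclear matches of at least 100 nt, 2 held a read (1 each, on chromosomes 2 and 16).

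The bisulfite table covered 308 of the 344 sense cytosines with over 5 reads, at a median coverage of 39.0 reads. A level of at least 20% was reached by 205 (66.6%), and the median level was 40.5%. The same rule called 74.4% of 2847 sense cytosines in the 12 other mtDNA mRNAs and 0.775% of all cytosines of the table with over 5 reads. Those mRNAs were unlike each other, from 24.3% called in MT-CO2 to 100% in MT-ATP8. On the antisense strand the median coverage was 914.5 reads, the median level 2.75%, and 3 of 94 cytosines were called. The strand was taken from the reference letter, C as sense and G as antisense. Coverage was thus far lower on the sense strand, whereas miCLIP reads lay almost wholly on it, and the reason was not tested. High levels were those of whole stretches at low coverage. The called sense cytosines formed 4 runs, the longest of 73 neighbouring cytosines, with a median coverage of 27.0 reads against 336 for those not called, and across the 308 cytosines level and coverage had a Spearman rho of -0.77. Neighbouring cytosines share reads and are not independent, and what unconverted reads contribute to these levels was not tested.

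The highest levels were at the start of the gene, where 3323 was read as methylated in 25 of 28 reads (89.3%, exact 95% interval 71.8% to 97.7%), 3326 in 29 of 33, 3318 and 3319 in 21 of 24 and 3311 in 19 of 22. None of these 5 was a high-confidence miCLIP site. At a coverage of at least 100 reads, 2 of 93 cytosines that were no site were called (2.15%) and 0 of the 8 NSun3 sites. The exact interval for these 8 reaches 36.9% but takes them as independent. They lie within bases 564 to 603 and share reads, so both counts are a description.

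At the leading cytosines the bisulfite level was low and not above that of the cytosines around them. The cytosine at 3905 was read as methylated in 21 of 639 reads, 3.29% (exact 95% interval 2.05% to 4.98%). The 4 other cytosines within 5 nt (3901, 3904, 3909 and 3910) had 3.29% to 3.78% at 628 to 640 reads, all inside that interval. Within 25 nt the 16 other cytosines had a median of 4.86% (3.29% to 7.36%) and 9 were inside it, so 3905 lay at the low end of its wider surroundings. At 3868 it was 31 of 489 reads, 6.34% (4.35% to 8.88%), and the 3 cytosines within 5 nt had 6.48% to 6.77%. Methylation above the level of the neighbours was thus not detectable at either site at this depth, in cells for which the labels name no transfected enzyme. The intervals cover counting error only, and the methods describe levels compiled both before and after likely duplicates were dropped without saying which of these the deposited table holds. Of the 14 NSun3 sites, 6 reached 20%, all before base 350, where their coverage was 13 to 80 reads and most other cytosines reached it too.

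**Figure D5:**
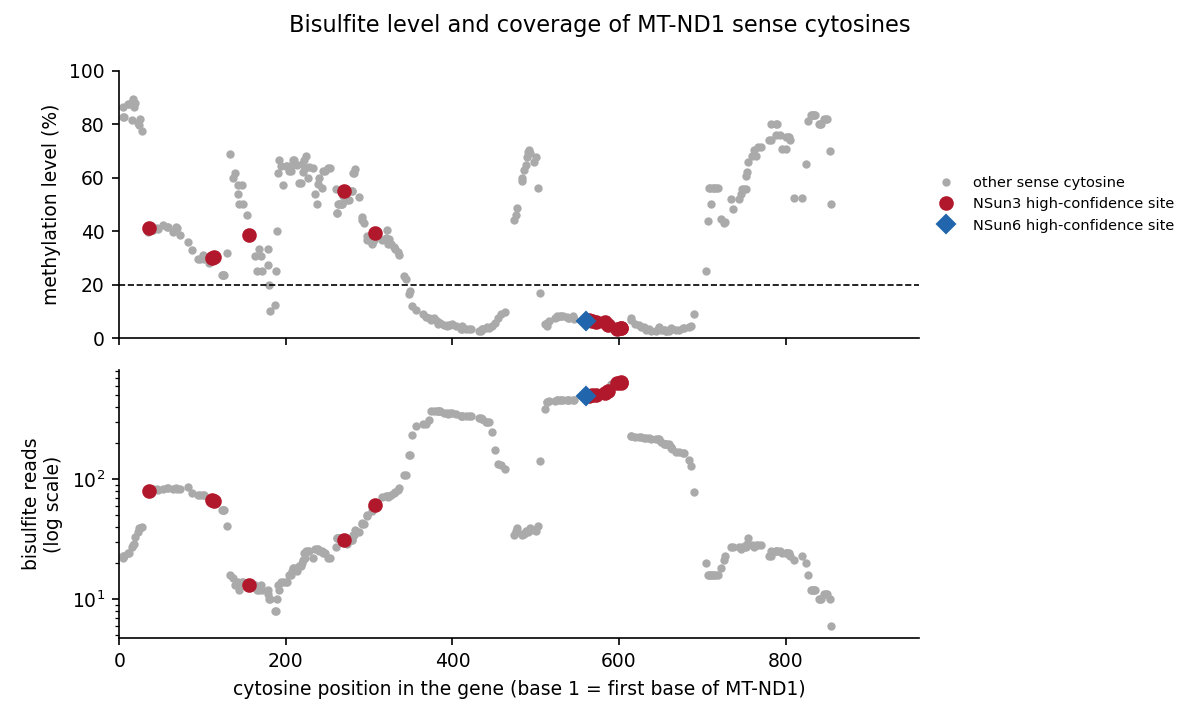
Bisulfite level in percent (top, dashed line at 20%) and coverage in reads (bottom, log axis) of the 308 sense cytosines of MT-ND1 with over 5 reads, by base of the gene; red marks NSun3 and blue NSun6 sites of high confidence. Levels are high where coverage is low, and the leading sites at bases 561 and 598 lie at 6.34% and 3.29% in the best covered stretch.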

How the data were processed

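The study removed miCLIP reads with identical random barcodes, trimmed adapters, kept reads of at least 18 nt and placed them on hg19 with bowtie, allowing 1 mismatch and a single best place. The authors deposited whole-number read counts per truncation position, 1 file per library, without strand; each file runs over the chromosomes in 2 passes, taken as plus and minus strand. For the bisulfite data, aligned with Bismark, the deposited table gives, for each cytosine it lists, read counts with and without a call of methylation and the resulting percent. It lists 317 of the 344 sense cytosines of MT-ND1 and 94 of the 112 antisense ones.

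Truncations went to the nearest cytosine within 2 nt, the 5′ one in a tie. RPM uses the total of each file. mtDNA positions were shifted by 1 nt in MT-ND1 to match the GRCh37 reference and its GENCODE annotation. Counts were tested with edgeR 4.0.16 (quasi-likelihood, TMM, filterByExpr, Benjamini-Hochberg adjusted p under 0.05), with DESeq2 1.42.0 as an alternative. SE is the log2 fold change over the square root of F. edgeR was tested on simulated data. Exact two-sided permutation tests were used for shares. Nuclear copies were sought with BLAST 2.17.0 and structures with RNAfold 2.7.2. No column was left unused.

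Cytosines named are the 8 NSun3 and up to 8 NSun6 high-confidence sites with the highest mean RPM, the 5 highest bisulfite levels, and those within 5 nt of the leading sites. The 3 genes most like MT-ND1, the nuclear copies with most reads and the motif CTCCA were fixed likewise. MT-ND1 and all lists were chosen with earlier results of these data known. NSun6 3631 and 3649, the bisulfite values of 3649 and 3651 and the inverted repeats were picked after their values were seen. Replicates of an enzyme differed by more than sampling noise (chi-square over degrees of freedom 3.04 to 19.8) and were counted separately.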

Additional observations from a re-analysis of the deposited data

How the results depend on the processing

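MT-ND1 was higher in NSun3 under each alternative tried, as RPM, as a share of mtDNA reads, on the sense strand and in edgeR. Its log2 fold change ranged from 2.89 (mtDNA features only) to 7.01 (replicate block) over 14 alternatives, 5.28 to 6.91 when 1 library was left out, with an adjusted p of at most 0.00866 (annotated genes only). The median over all features was -7.06 as reported, -7.36 with RLE size factors, -7.30 with library totals, -5.60 with DESeq2, -2.0 with no filter beyond 1 read and -0.28 within mtDNA, so that its size depends on the filter and scaling. The share of mtDNA reads differed by 11.18 percentage points, by 3.0 with each position counted once and 2.44 without the leading cytosine. Called MT-ND1 cytosines numbered 7, and 24 of 91 with no filter beyond 1 read (4.51% over all cytosines), and ranged from 6 to 17 when 1 library was left out. NSun3 sites numbered 14, 23 above 20 RPM, 6 when all 3 libraries had to pass, and 6 to 13 when 1 library was left out, and NSun6 sites 1, and 3 above 20 RPM. Methylated sense cytosines numbered 205 of 308, 147 of 248 at a coverage of at least 20 reads and 2 of 102 at a coverage of at least 100 reads. Methylated antisense cytosines numbered 3, and 1 at that coverage, 7 at a level of at least 10% and 0 when the lower bound of the interval had to exceed 20%. For sites and methylated cytosines, shares over all cytosines were not counted at the alternative settings. Whether these changes are particular to MT-ND1 can therefore not be told. The cause of these changes was not tested. The replicate numbers do not pair the libraries (correlations of deviations -0.0124, 0.000236 and 0.0132 for the same number), and the replicate block gave a log2 fold change of 7.01 and changed no call of MT-ND1 or of its 7 cytosines.

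Levels under 21.1 RPM, the worth of 1 read, cannot be seen in the shallowest NSun3 library. The enzymes differ in depth, strand purity and mtDNA share, and the part these play in the gap cannot be told apart from the enzyme. No untransfected library was analysed here.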

Other observations

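The only sense cytosines of MT-ND1 called methylated at a coverage of at least 100 reads were 3649 (25 of 108 reads, 23.2%, exact 95% interval 15.6% to 32.3%) and 3651 (24 of 109 reads, 22.0%, 14.7% to 31.0%), both at a coverage just above that limit. They lie in a stretch where the level fell as coverage rose, from 32.1% at 3642 (81 reads) and 31.0% at 3643 (84 reads) to 16.5% at 3655 (158 reads), so neither stands out from its neighbours. The cytosine at 3649 had the third highest NSun6 level of the gene, with 5, 25 and 14 NSun6 reads and 0 NSun3 reads. Of these NSun6 reads, 5, 21 and 14 were at 3650, equally near to 3651, and went to 3649 as the 5′ cytosine. In the 50 nt that hold 3649, bases 301 to 350, NSun6 had 12, 48 and 41 reads and NSun3 15, 14 and 0.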
